A study of Homo sapiens with 4 samples.

Results

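These nuclei are the 297 barcodes, of 5918 with at least 5000 counts and 14568 in all, in which the fewest counts fell on gene-rich chromosomes 19 and 22 compared with gene-poor chromosomes 4, 13 and 18. The members were chosen by that measured ratio: for each barcode the log2 of its counts on 19 and 22 over its counts on 4, 13 and 18 was taken over the peaks of its own library, and the lowest 5% of each library were kept. The libraries are called Carrier 12, Carrier 31, Inflachromene 11 and Inflachromene 35, by treatment and mouse, and values of the 4 libraries are given in that order throughout. The members number 99, 38, 66 and 94. They were compared with the 1182 middle barcodes, those between the 40th and 60th percentile of the same ratio in the same library. Because chromosomes 4, 13, 18, 19 and 22 chose the members, every test of members against middle barcodes below uses the 18 other chromosomes (1 to 3, 5 to 12, 14 to 17, 20, 21 and X), unless it is said to use peaks held out from the rule. The comparison of treatments within members covers all chromosomes.

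Chromatin accessibility was measured nucleus by nucleus with droplet ATAC-seq, in which a transposase cuts open DNA and a barcode records the droplet each fragment came from. The cells were Panc1, an established human pancreatic ductal adenocarcinoma line, recovered from the pancreas of transplanted mice. Each of the 4 libraries is from 1 mouse. Mice 12 and 31 were given carrier only, and mice 11 and 35 inflachromene, a small molecule described as a binder of the chromatin proteins HMGB1 and HMGB2. The labels state no dose, duration, strain or age. Nuclei of the host mouse were not separated from those of Panc1.

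Human chromosomes differ in how densely genes are packed. Gene-dense chromosomes such as 17, 19 and 22 tend to lie towards the inside of the nucleus in open, early-replicating chromatin, while gene-poor ones such as 4, 13 and 18 lie more often near the nuclear lamina, where much of the DNA is compact and replicates late. The balance of fragments between them can differ between nuclei with their state and also with how evenly their DNA was reached by the transposase. Each barcode of the deposited matrices is taken here as a nucleus, and no doublet caller was run.

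The 4 promoters below are examples from the gene starts with the largest shifts, and they differed in base composition within each direction. FAM78A and GLMP had the largest decreases among the gene starts called lower in the members, and ABI3BP and DIRAS2 the largest increases among those called higher. Each is 250 bases before to 50 after the RefSeq gene start (GRCh38.p14, minus strand, written 5′ to 3′), and capitals mark every CG pair. They lie at chr9:131277986-131278285, chr1:156295630-156295929, chr3:100993372-100993671 and chr9:90642775-90643074 in that order.
FAM78A: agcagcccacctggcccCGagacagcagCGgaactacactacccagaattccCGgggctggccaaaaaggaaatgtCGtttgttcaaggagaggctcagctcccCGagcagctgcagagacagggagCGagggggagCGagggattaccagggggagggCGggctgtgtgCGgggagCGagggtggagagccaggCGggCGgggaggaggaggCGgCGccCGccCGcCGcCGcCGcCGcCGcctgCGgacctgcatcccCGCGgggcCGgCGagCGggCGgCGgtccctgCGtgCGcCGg
GLMP: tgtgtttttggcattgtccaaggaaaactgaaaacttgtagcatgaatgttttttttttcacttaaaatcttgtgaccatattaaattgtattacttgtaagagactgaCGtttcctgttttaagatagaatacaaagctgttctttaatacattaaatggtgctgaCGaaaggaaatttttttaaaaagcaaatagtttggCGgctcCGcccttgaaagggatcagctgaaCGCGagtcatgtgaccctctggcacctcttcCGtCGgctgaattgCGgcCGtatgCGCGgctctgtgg
ABI3BP: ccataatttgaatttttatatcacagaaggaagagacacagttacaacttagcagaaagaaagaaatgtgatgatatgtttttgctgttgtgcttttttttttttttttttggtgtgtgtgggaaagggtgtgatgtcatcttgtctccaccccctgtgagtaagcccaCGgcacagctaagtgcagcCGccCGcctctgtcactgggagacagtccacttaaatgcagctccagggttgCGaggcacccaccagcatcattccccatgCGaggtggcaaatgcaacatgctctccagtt
DIRAS2: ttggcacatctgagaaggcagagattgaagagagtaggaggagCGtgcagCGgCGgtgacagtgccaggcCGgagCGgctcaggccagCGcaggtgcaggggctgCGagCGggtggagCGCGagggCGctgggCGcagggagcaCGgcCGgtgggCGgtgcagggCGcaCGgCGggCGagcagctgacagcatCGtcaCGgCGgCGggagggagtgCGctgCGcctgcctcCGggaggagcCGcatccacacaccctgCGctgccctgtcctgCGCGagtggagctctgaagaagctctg
FAM78A holds 32 CG pairs and GLMP 12, and among the raised pair DIRAS2 holds 30 and ABI3BP 5. Gene starts called lower had a median of 30 CG pairs and those called higher 25, against 27 over all tested. Their median GC content was 67% and 64.8%, against 65.7%. Over the 8377 gene starts tested, the log2 difference between members and middle barcodes went with the number of CG pairs in the promoter at a rank correlation of -0.11 and with promoter GC content at -0.08. It went with the number of genes in the surrounding 10 Mb at -0.38. These correlations are across gene starts, which share libraries and neighbours and are not independent replicates.

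At its extremes the ratio that chose the members spread farther downward than upward. Its median over barcodes of at least 5000 counts was 0.86, 0.95, 0.96 and 0.78, and its 5th percentile was 0.40, 0.18, 0.32 and 0.29. From the median to the 5th percentile the distance was 0.45, 0.77, 0.64 and 0.49, and from the median to the 95th it was 0.46, 0.40, 0.52 and 0.43, so that at 5% the 2 sides were alike in Carrier 12 and close in Inflachromene 35. The lowest barcode of each library stood at -4.55, -1.95, -9.51 and -3.71, in the same order. Below -1 there were 21, 7, 16 and 16 members, 60 in all, and in none of the libraries did a barcode stand as far above the median as -1 stands below it. A further 118 members lay from -1 to 0 and 119 at 0 or above. The threshold itself cuts through a continuous range: the last member inside and the first barcode outside stood at 0.40 and 0.41 in the first library, then at 0.16 and 0.19, 0.30 and 0.32, and 0.28 and 0.29. The median counting error of a single member's ratio was 0.11 to 0.14 on the log2 scale, so members near the threshold cannot be told from their neighbours.

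**Figure D1:**
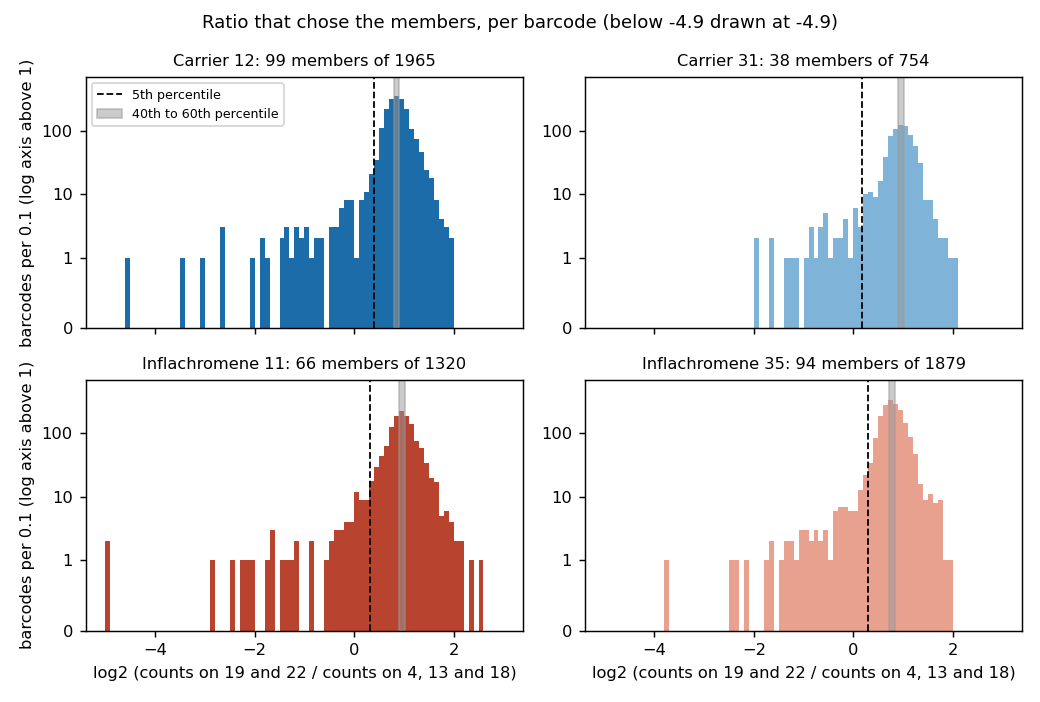
Distribution of the ratio that chose the members in each of the 4 libraries: the horizontal axis is log2 of counts on chromosomes 19 and 22 over counts on 4, 13 and 18, the vertical axis the number of barcodes of at least 5000 counts per 0.1 (log axis above 1; values below -4.9 are drawn at -4.9). The dashed line is the 5th percentile and the grey band the 40th to 60th; the lower tail reaches below -1 in every library and has no upper counterpart.

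A low ratio did not come with more counts on the gene-poor chromosomes. A member had a median of 607, 902, 587 and 622 counts on 4, 13 and 18, against 887, 2014.5, 997 and 1121 in middle barcodes. On 19 and 22 the medians were 543, 658.5, 456 and 510 against 1600, 3904.5, 1934.5 and 1913. Members thus held fewer counts on both groups of chromosomes, and the loss was deeper on the gene-rich ones. The working description of these nuclei as open in gene-poor chromosomes therefore holds for shares of counts and not for counts per nucleus, and they are called low-ratio nuclei or members from here on. These values are part of the rule and are given without a test.

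The low-ratio nuclei were shallow. Their median depth was 9186, 14300.5, 8746.5 and 10025.5 counts, against 16898, 40719, 20026.5 and 21547 in middle barcodes. The members were lower in 4 of 4 libraries, by a mean of -1.17 ± 0.261 (SD, n = 4) in the log2 ratio of medians. An exact two-sided sign-flip permutation test over the libraries gave p = 0.13, the smallest that 4 pairs allow. Members made up 26.4%, 18.6%, 24.0% and 30.7% of the barcodes of 5000 to 10000 counts, 2.97%, 21.4%, 3.04% and 5.69% of those of 10000 to 20000, and 1.55%, 1.63%, 0.982% and 0.768% of those above 20000. Members were thus most frequent in the shallowest band in 3 libraries and in the middle band in Carrier 31. Depth moves with membership, and its part in the differences below was not tested beyond the depth-limited values given beside them. When each barcode was thinned to 2500 fragments, members covered a median of 2370, 2297, 2349 and 2381 peaks against 2385, 2371, 2366 and 2392, a mean log2 ratio of -0.018 (SD 0.0186, n = 4, exact permutation p = 0.13). The 5% of barcodes with the highest ratio covered 2349, 2326, 2324 and 2362.5, so this was not particular to the members.

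Chromosomes that the rule did not use moved largely in the order of their gene density. The members' share of counts was lower on chromosomes 17, 16, 21, 11 and 20 and higher on 3, 5, 6, 7, 8 and X, where shares are of the counts on the 18 chromosomes. By limma on log2 shares with the library as a block, 11 of 18 chromosomes passed an adjusted p of 0.05, which is 61.1% of those tested: 6 higher (33.3%) and 5 lower (27.8%). All 11 moved the same way in all 4 libraries. At 5000 to 20000 counts all 11 passed, but this band did not match depth. Below 10000 counts it held 52, 13, 44 and 47 members and 21, 6, 26 and 17 middle barcodes. From 10000 to 20000 it held 41, 15, 16 and 39 members and 286, 5, 105 and 123 middle barcodes. With the rule applied to barcodes of at least 10000 counts the differences were smaller: chromosome 17 stood at -0.23 (SE 0.0552), 16 at -0.12 (SE 0.0278) and 3 at 0.0995 (SE 0.0254), and chromosomes 6, 11, 21 and X no longer passed. X did not pass without Carrier 12 either. Shares are relative, so a lower share of one chromosome raises the others.

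Chromosome 17, the densest in genes after 19, changed most. It took 6.25%, 5.54%, 5.34% and 6.12% of the members' counts, against 7.72%, 8.01%, 7.54% and 7.26% in middle barcodes. The members of every library were below the middle barcodes of every library. The log2 difference was -0.40 (SE 0.053, limma adjusted p = 0.00184). Chromosome 16 differed by -0.24 (SE 0.0319), chromosome 11 by -0.14 (SE 0.0200) and chromosome 20 by -0.14 (SE 0.0200). Chromosome 21 fell by 0.22 on the log2 scale (SE 0.0488) and is the exception to the order, since it is one of the chromosomes with few genes per Mb. Its call was lost at 10000 or more counts (-0.0603, limma adjusted p = 0.41), with the lowest 10% (-0.0738, adjusted p = 0.155) and without Carrier 12 (-0.22, adjusted p = 0.0818), and over all alternatives its limma adjusted p ran from 0.00104 to 0.41.

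Among the chromosomes that gained share, chromosome 3 led. It took 8.71%, 8.97%, 9.73% and 8.69% of the members' counts against 7.66%, 7.56%, 7.97% and 7.99%, with no overlap between members and middle barcodes. The log2 difference was 0.21 (SE 0.0307, limma adjusted p = 0.00193). Chromosomes 7 and 8 each rose by 0.12 (SE 0.0285 and 0.0191), chromosome 5 and X by 0.10 (SE 0.0175 and 0.0228) and chromosome 6 by 0.09 (SE 0.0177). Chromosomes 1, 2, 9, 10, 12, 14 and 15 did not pass, with differences from -0.04 to 0.07. Over the 18 chromosomes the difference went with protein-coding genes per Mb at r = -0.80 and rho = -0.67, as a description over chromosomes that share the same libraries.

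**Figure D2:**
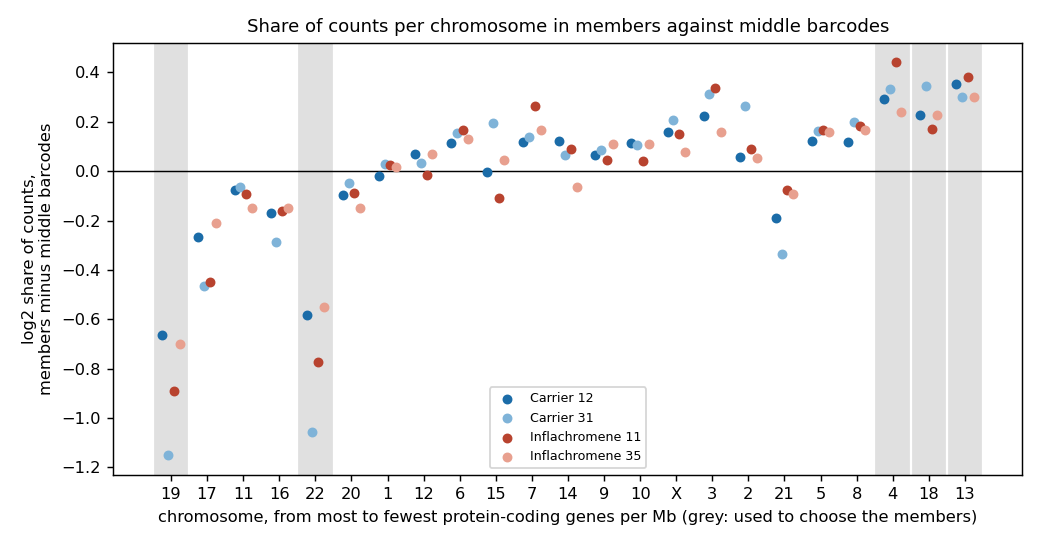
Log2 difference in the share of all counts between members and middle barcodes (vertical axis) for each chromosome, ordered from most to fewest protein-coding genes per Mb, with 1 point per library. Grey columns are the 5 chromosomes that chose the members; among the others 17 lies lowest in each library and 3 highest in 3 of the 4, while 21 lies below 0 although it holds few genes.

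The rule's own chromosomes could be tested on held-out peaks. When members were chosen on odd-numbered peaks and measured on even-numbered ones, chromosome 19 took 5.004%, 3.73%, 4.44% and 4.65% of the members' counts against 7.81%, 8.12%, 8.22% and 7.43%, a log2 difference of -0.83 (SE 0.0811, limma adjusted p = 0.000533). Chromosome 22 differed by -0.70 (SE 0.0948), chromosome 4 by 0.32 (SE 0.0377), chromosome 13 by 0.29 (SE 0.0263) and chromosome 18 by 0.23 (SE 0.0425). All 5 passed, so the ratio of a member carried over to peaks it was not chosen on. Both peak sets come from the same nuclei and the same depth.

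The shift was graded within the low-ratio nuclei. An index over 8 chromosomes outside the rule was taken for each barcode, the log2 of counts on the 4 densest in genes (11, 16, 17 and 20) over counts on the 4 sparsest (2, 5, 8 and 21). Its median was 0.03, -0.18, -0.12 and -0.10 in the members of the 4 libraries, against 0.29, 0.32, 0.24 and 0.18 in middle barcodes. The mean difference was -0.35 (SD 0.109, n = 4; lower in 4 of 4; exact permutation p = 0.13). Over all libraries the index was 0.25 in middle barcodes, 0.06 in members whose ratio was 0 or more, -0.12 in those from -1 to 0 and -0.42 in those below -1. Along the same steps chromosome 17 took 6.50%, 5.84%, 4.91% and 3.94% of all counts and chromosome 3 took 6.67%, 7.27%, 8.08% and 9.48%. Within the members of a library the rank correlation of the index with the ratio was 0.59, 0.61, 0.43 and 0.62 (n = 99, 38, 66 and 94), and within middle barcodes it was 0.09, 0.22, 0.12 and 0.14. Pearson's r over the members was 0.64, 0.48, -0.49 and 0.66, so that in Inflachromene 11, whose lowest member stood at -9.51, the 2 measures differ in sign. These are descriptions of barcodes that share a library.

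Over all libraries depth ran along the same steps, with medians of 20019, 12162, 9355.5 and 7202 counts, but not in Carrier 31, where members at 0 or more had 7429 counts and those from -1 to 0 had 17522. At 5000 to 10000 counts the index of members minus that of middle barcodes was -0.54, -0.23, -0.38 and -0.45 in the 4 libraries, at 10000 to 20000 counts it was -0.19, -0.47, -0.12 and -0.15, and above 20000 counts it was -0.02, -0.44, -0.11 and -0.05. In 3 of the libraries the shift was thus largest in the shallowest barcodes, and in Carrier 31 it was not. The bands above 20000 counts hold only 6, 10, 6 and 8 members.

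**Figure D3:**
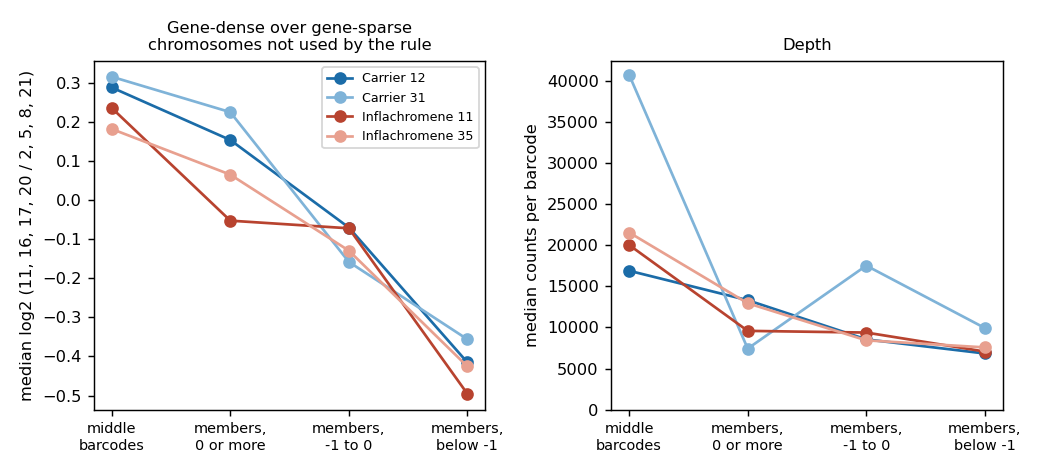
Left, median log2 ratio of counts on chromosomes 11, 16, 17 and 20 over counts on 2, 5, 8 and 21; right, median counts per barcode; 1 line per library. From middle barcodes to members below -1 the index falls from between 0.18 and 0.32 to between -0.36 and -0.50, while depth ends below 10000 counts in each library, by way of a low step at 7429 counts in Carrier 31.

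The differences followed gene number on a finer scale as well. In 10 Mb windows the low-ratio nuclei had a lower relative level where genes crowd and a higher one where they are sparse, also within single chromosomes. By edgeR's quasi-likelihood test with the library as a block, 138 of 249 windows passed an adjusted p of 0.05, which is 55.4%: 69 higher (27.7%) and 69 lower (27.7%). Of 69 windows with 80 or more protein-coding genes, 42 were lower and 6 higher, with a median log2 difference of -0.17. Leaving out chromosomes 11, 16, 17 and 20, 25 of 48 such windows were lower and 5 higher (median -0.14). Of 39 windows with under 30 genes, 18 were higher and 3 lower (median 0.15), and the 141 in between had 45 higher and 24 lower (median 0.05). Over the 249 windows the rank correlation of the difference with gene number was -0.54.

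The lowest window was the first of chromosome 17 (chr17:1-10000000, 243 genes). Its members' level was 9993, 7834, 8633 and 9274 CPM (counts per 1000000 counts in these windows, scaled by TMM), against 14488, 15718, 15060 and 13802 in middle barcodes. The groups were far apart, with a log2 difference of -0.73 (SE 0.0763, edgeR adjusted p = 4.59e-07). The last window of chromosome 17 stood at -0.64, chr11:60000001-70000000, with 286 genes, at -0.61, the last of chromosome 9 at -0.61, the last of chromosome 20 at -0.58 and the last of chromosome 21 at -0.53. The first and last windows of chromosomes were lower in 17 and higher in 4 of 33 cases (median -0.16), and among those with under 80 genes in 8 and 3 of 19 cases (median -0.09). On chromosome 21 the single window at the gene-rich end thus stood among the lowest, and it passed in 16 of 17 alternative settings.

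The highest window was chr9:10000001-20000000, with 24 genes, at 0.47 (SE 0.0503). Its level was 5007, 5219, 4696 and 4353 CPM in members against 4039, 3650, 3303 and 2965 CPM in middle barcodes, so again every member value was above every middle value. It was followed by chr3:150000001-160000000 at 0.38, chr8:130000001-140000000 at 0.38, chr3:110000001-120000000 at 0.35 and chr5:160000001-170000000 at 0.34. Chromosome 9 shows the range best, since its share as a whole did not pass the test while its windows ran from 0.47 near one end to -0.61 at the other. The rank correlation with gene number was -0.88 over its 12 windows, -0.66 over the 14 of chromosome 11, -0.59 over the 24 of chromosome 1, -0.43 over the 20 of chromosome 3 and -0.33 over the 9 of chromosome 17. On 3p the first window did not pass (0.03, SE 0.0544), and on 9p the windows from 0 to 10 Mb and from 20 to 30 Mb did not pass either (0.13 and 0.06). Restricted to barcodes of 5000 to 20000 counts, a band in which depth was not matched, 125 windows passed. With the rule applied to barcodes of at least 10000 counts, 45 did.

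**Figure D4:**
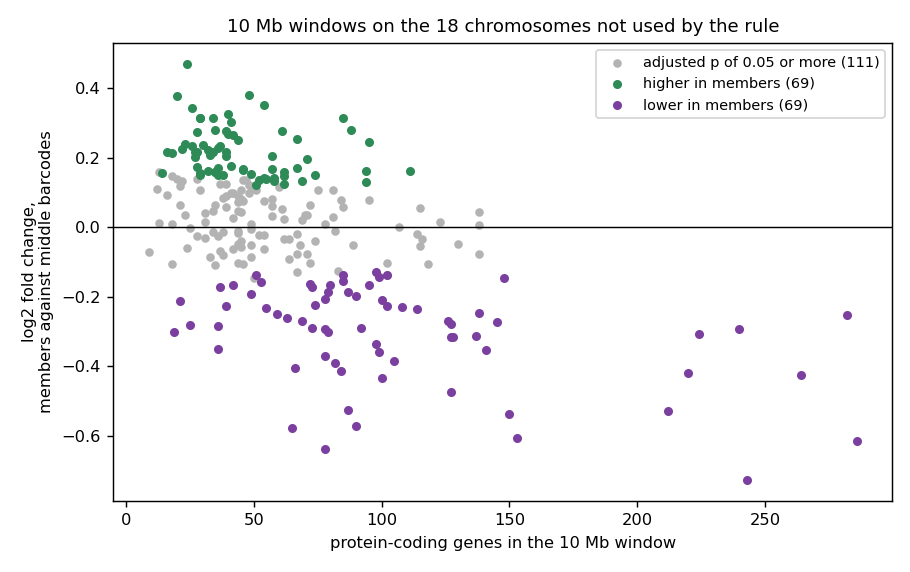
Log2 fold change of members against middle barcodes (vertical axis) in 249 windows of 10 Mb on the 18 chromosomes outside the rule, by the number of protein-coding genes in the window (horizontal axis). Green marks the 69 windows higher and purple the 69 lower in members at an edgeR adjusted p under 0.05; windows with over 150 genes lie below 0.

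Gene starts lost share in these nuclei. The share was taken over counts in regions with a peak in all 4 libraries, on the chromosomes outside the rule without chromosome 8. Regions within 1000 bp of the start of a protein-coding gene held 39.3%, 42.3%, 41.6% and 39.2% of these counts in members. In middle barcodes they held 41.4%, 44.1%, 45.6% and 41.1%. The share was lower in 4 of 4 libraries, by a mean of -2.44 percentage points (SD 1.06, n = 4; exact permutation p = 0.13, the smallest possible). The mean was -3.72 points among barcodes of 5000 to 20000 counts and -3.29 with the rule applied to barcodes of at least 10000. Within 5000 to 10000 counts, however, the median share per barcode was 41.3%, 39.2%, 41.6% and 37.6% in members against 40.4%, 47.4%, 41.5% and 42.8% in the few middle barcodes of that depth, lower in members in Carrier 31 and Inflachromene 35 only. Gene starts on chromosome 8 were not analysed here.

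The same held region by region. Consensus regions, those with a peak in all 4 libraries, had a median log2 difference of -0.16 at gene starts (8183 regions, 67.3% below 0) and 0.01 elsewhere (31783 regions). Gene starts and gene number both went with the difference: in windows with 80 or more genes the medians were -0.30 at gene starts and -0.17 elsewhere, and in windows with under 30 genes 0.01 and 0.27. A gene start in a sparse window thus stood higher than a distal region in a crowded one.

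Single regions rarely passed. Of 41696 regions 274 did, 0.657% (edgeR), with 65 higher (0.156%) and 209 lower (0.501%). DESeq2 called 225, split into 113 higher and 112 lower, so the surplus of lower regions depends on the test. Of the 207 lower regions with gene annotation, 140 lay at gene starts (67.6%, against 20.5% of all tested) and 151 on chromosomes 11, 16, 17 and 20 (72.9%, against 21.1%). Chromosome 17 held 80 of the 207, against 2680 of all 39966 tested with annotation. Of the 62 higher ones, 5 lay at gene starts and 5 on chromosomes 11, 16, 17 and 20, while 13 lay on chromosome 3, which held 3184 of the 39966. The count fell to 1 without Carrier 31 and to 7, 7 and 13 without Carrier 12, Inflachromene 11 and Inflachromene 35. It was 1 with the rule applied to barcodes of at least 10000 counts.

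The region with the firmest gain lay over nuclear copies of mitochondrial genes. It is chr1:633516-634508, over the pseudogenes MTATP8P1, MTATP6P1 and MTCO3P12, and its level was 75.6, 395, 169 and 196 CPM in members against 25.4, 51.5, 66.1 and 19.4 CPM in middle barcodes. Members were higher in every library and without overlap, by 2.33 on the log2 scale (SE 0.218, edgeR adjusted p = 3.56e-07). A second such region, over MTND1P15 on chromosome 17, stood at 14.6, 114, 48.7 and 70.1 CPM against 10.9, 18.9, 21.4 and 7.74 CPM, a difference of 1.96 (SE 0.335, adjusted p = 0.00632 by edgeR) on a chromosome whose share fell. The third of the 3 tested regions of this kind, over MTND1P23 and MTND2P28, did not pass (1.71, SE 0.504, higher in 3 of 4 libraries). These 3 were looked up after the first had been seen. Fragments from mitochondria can align to such copies, and the part of mitochondrial DNA in the other differences was not tested.

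Other regions away from gene starts were thinly covered, and the nearest gene start is named with its distance. The largest fitted gain was at chr2:190089871-190090869, 27142 bp from the start of MSTN, the muscle growth inhibitor myostatin, with 17.1, 24.2, 33.7 and 7.94 CPM in members against 1.01, 1.97, 2.61 and 2.46 CPM. Gains also passed 30872 bp from TPBG (2.76, SE 0.647), 321830 bp from DUSP10 (2.67, SE 0.634) and 81517 bp from TRIM36 (2.56, SE 0.630). At chr17:42819695-42820606, 3273 bp from the autophagy gene BECN1, no member had a count while middle barcodes held 8.66, 6.80, 7.58 and 6.86 CPM. The mean of the middle barcodes was 6.28-fold above a floor of 3 counts over all members. Because 2 counts were taken as about 1 fragment, 3 counts are fewer than 3 fragments, and this fold is not a firm minimum. At chr12:110316401-110317306, 35785 bp from the calcium pump gene ATP2A2, the members were likewise at 0, and middle barcodes were 5.85-fold above the same floor. Regions 242761 bp from GSE1 (-3.19, SE 0.771), 19955 bp from EIF5 (-3.09, SE 0.690) and 42723 bp from FAAP20 (-2.41, SE 0.555) were lower as well, each with 2 or 3 libraries at 0 in members. Intervals and floors of this kind cover counting error only.

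At single gene starts, too, the low-ratio nuclei were lower mostly on the crowded chromosomes. Of 8377 gene starts 476 passed in edgeR's test, 5.68%, with 244 higher (2.91%) and 232 lower (2.77%). DESeq2 called 146, 98 higher and 48 lower. Of the 232 lower gene starts 168 lay on chromosomes 11, 16, 17 and 20 (72.4%), against 11 of the 244 higher (4.51%) and 22.05% of all tested. Chromosomes 3, 5, 6 and 7 held 124 of the higher and 18 of the lower, and their share of all tested gene starts was not computed. Member and middle values did not overlap at 14.7% of gene starts. The count was 0 without Carrier 31 and 24 without Inflachromene 11, 252 without Carrier 12 and 172 without Inflachromene 35, and it was 0 among barcodes of 5000 to 20000 counts and 0 with the rule applied to barcodes of at least 10000 counts. At an unadjusted p under 0.05 edgeR had 1313, 1044 and 821 gene starts in these 3 settings at 0. Calls, differences and levels are relative to other gene starts, so the members' lower share of counts at gene starts is not part of them. In the test of all regions, 5 of 8183 regions at gene starts were called higher and 140 lower. Levels below are CPM of the counts at gene starts of the 18 chromosomes, scaled by TMM, and are differences in accessibility, not in expression.

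The 10 gene starts with the largest gains lay on chromosomes 1, 2, 3, 5, 6 and 9. SH3TC2, which encodes an endosomal protein of Schwann cells, had the smallest adjusted p of them, with 53.4, 85.4, 73.7 and 67.5 CPM in members against 15.8, 11.6, 18.1 and 19.7 CPM. The groups stood well apart, with a log2 difference of 2.08 (SE 0.386, edgeR adjusted p = 0.00127), and it passed in 13 of 17 alternative settings. CALCRL, the receptor of adrenomedullin and CGRP, stood at 35.6, 50.3, 65.0 and 51.4 CPM against 11.7, 14.7, 20.7 and 6.31 CPM, without overlap. Its difference was 1.99 (SE 0.445, edgeR adjusted p = 0.00552).

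ABI3BP, a matrix protein, had 35.6, 20.1, 26.0 and 19.3 CPM in members against 6.30, 10.7, 6.55 and 1.58 CPM in middle barcodes, a difference of 2.16 (SE 0.630). DIRAS2, a small GTPase of the Ras family, had 38.6, 40.2, 8.67 and 48.2 CPM against 8.10, 13.8, 7.56 and 3.15 CPM, a difference of 2.14 (SE 0.564). Its member value in Inflachromene 11 lay within the range of the middle barcodes. STAT4, a transcription factor of interleukin-12 signalling, rose by 1.78 (SE 0.458), and F5, coagulation factor V, by 1.72 (SE 0.451). F2RL2, a thrombin receptor of the protease-activated family, rose by 1.58 (SE 0.483), PTX3, a secreted pattern-recognition protein, by 1.45 (SE 0.345), TXLNB by 1.73 (SE 0.511) and PRSS35 by 1.44 (SE 0.438). Of these 10, 8 had no overlap between members and middle barcodes, and the exceptions were DIRAS2 and PTX3.

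The 10 gene starts with the largest decreases lay on chromosomes 1, 9, 11, 12 and 17. ANKFY1, an endosomal effector of Rab5 on 17p, had 47.5, 40.2, 17.3 and 41.8 CPM in members against 106, 104, 96.2 and 139 CPM. All member values were below all middle values, with a difference of -1.59 (SE 0.284, edgeR adjusted p = 0.000866). GPS2, a subunit of the NCoR and SMRT corepressor complexes on the same arm, had 44.5, 30.2, 26.0 and 38.6 CPM against 94.5, 110, 88.7 and 75.3 CPM, a difference of -1.35 (SE 0.300). GRK2, the kinase that turns off many G-protein-coupled receptors, on 11q, had 38.6, 30.2, 26.0 and 32.1 CPM against 85.1, 83.5, 83.6 and 80.004 CPM, a difference of -1.37 (SE 0.313). Each of the 3 lies in one of the windows lowest in members.

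On the last window of chromosome 9, FUBP3, a single-strand nucleic acid binding protein, had 47.5, 20.1, 8.67 and 19.3 CPM in members against 79.2, 68.0, 68.0 and 70.2 CPM, a difference of -1.57 (SE 0.356). FAM78A, in the same window, had 8.90, 0, 8.67 and 0 CPM against 20.7, 30.2, 20.7 and 27.2 CPM, a fitted difference of -2.37 (SE 0.703) that rests on few counts. GLMP, a lysosomal membrane protein, fell by 1.72 on the log2 scale (SE 0.492). It had 35.6, 0, 0 and 12.9 CPM in members against 49.1, 32.4, 35.3 and 47.7 CPM, with overlap through Carrier 12. RNF157, a ubiquitin ligase, stood at -1.49 (SE 0.424), CLIP1, a microtubule plus-end protein, at -1.43 (SE 0.452), GPN2 at -1.40 (SE 0.328) and DNAJC8, a J-domain protein of the spliceosome, at -1.36 (SE 0.353), and all 4 passed. Of the 10 with the largest decreases GLMP alone overlapped.

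**Figure D5:**
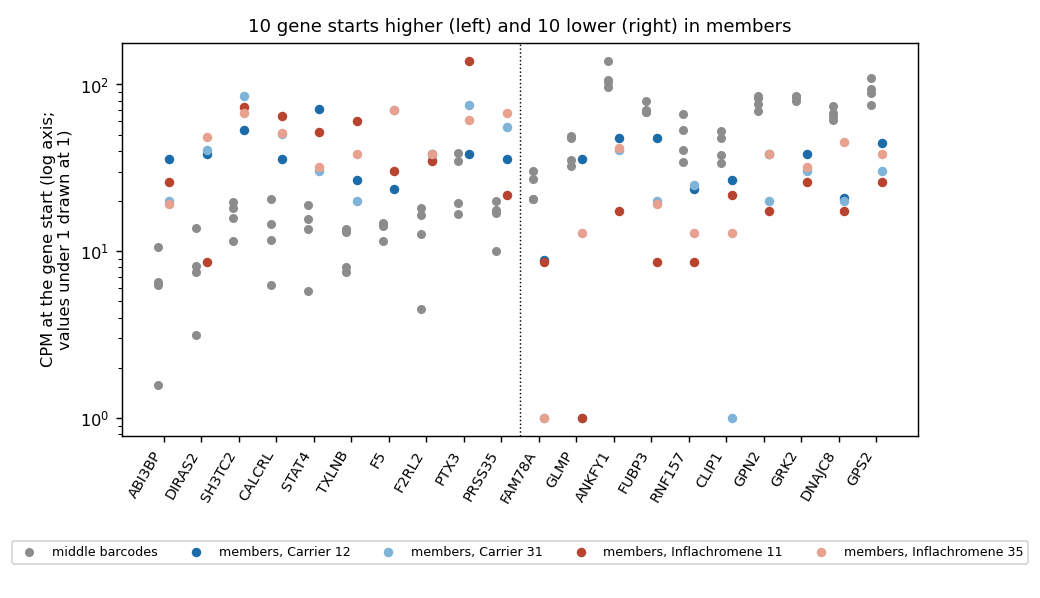
CPM at 20 gene starts (vertical log axis, values under 1 drawn at 1), with middle barcodes of the 4 libraries in grey and members coloured by library. At the 10 genes on the left members lie above the middle barcodes apart from DIRAS2 and PTX3, where they overlap, and at the 10 on the right they lie below apart from GLMP.

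Few genes of the functional lists passed. Of 21 gene lists, 18 had at least 5 measured gene starts, and those reported are given by their counts and medians, beside a median of -0.0024 over all gene starts and 5.68% called. The lists were drawn up with earlier results of these data known. Replication-dependent histone genes had 16 of 19 gene starts above 0 (median 0.19), and H3C2 alone passed, with 216, 221, 217 and 202 CPM in members against 131, 145, 133 and 145 CPM (0.63, SE 0.170). H2AC6 and H2BC4 share 1 region, so the 16 are not all separate regions. Genes of G1/S and DNA replication had 7 of 16 above 0 (median -0.09), and MCM3, a subunit of the replicative helicase, passed upward at 0.51 (SE 0.151). Genes of G2/M and mitosis had 8 of 17 above 0 (median -0.04), and ECT2, which drives cytokinesis, passed at 0.45 (SE 0.139). In each of the 3 lists 1 gene start passed, near the share over all gene starts.

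Among genes of nuclear architecture, 11 of 14 lamina and envelope genes were above 0 (median 0.10), and BANF1, which bridges DNA and the envelope, was the one that passed, downward. It had 116, 80.4, 73.7 and 61.0 CPM in members against 171, 180, 178 and 184 CPM (-1.10, SE 0.210, edgeR adjusted p = 0.00133). It shares its region with EIF1AD, and it lies in the crowded window of 11q. Of 17 heterochromatin and polycomb genes 9 were above 0, and KMT5B, a histone H4 methyltransferase gene in that same window, passed downward at -0.64 (SE 0.1999). Architectural chromatin proteins had 11 of 15 above 0 (median 0.11) and none passed, with HMGN1 at 0.53 (SE 0.183) and SMC4 at 0.39 (SE 0.142). Very long genes of gene-poor regions had 7 of 8 above 0 (median 0.23) and none passed, with LSAMP at 1.20 (SE 0.441) and MAGI2 at 0.80 (SE 0.385).

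Of 10 immediate early and AP-1 genes, JUN passed at 0.53 (SE 0.132), with 365, 397, 477 and 331 CPM in members against 238, 314, 268 and 266 CPM, and IER5 at 0.51 (SE 0.156). IER5 was lower in members in 1 library, Carrier 12, with 178 CPM against 187 CPM in middle barcodes. Of 12 mesenchymal genes 10 were above 0 (median 0.25), and SPARC, a collagen-binding matrix protein, passed at 0.95 (SE 0.279), though its member value in Carrier 31, 60.3 CPM, lay below the middle value there, 61.3 CPM. Of 10 genes of the unfolded protein and amino acid response, ASNS, asparagine synthetase, passed at 0.76 (SE 0.224), and of 5 NF-kB and inflammatory genes NFKB2 passed downward at -0.64 (SE 0.168). No gene start passed among 23 cytosolic ribosomal protein genes (10 above 0, median -0.13), where RPS10 stood at -0.73 (SE 0.239) and RPS3 at -0.64 (SE 0.239). None passed among 14 housekeeping (median -0.06), 13 interferon and antigen presentation (-0.05), 13 hypoxia and glycolysis (0.03), 12 apoptosis and DNA damage (-0.04) or 5 epithelial genes (0.13). Of the remaining lists, HOX and developmental factors had 4 measured gene starts (median -0.10), barrier genes 1 and olfactory receptors 0, and none passed. In all, 10 list genes passed, 7 higher and 3 lower, beside 476 of 8377 over all gene starts (5.68%). No list had more than 2.

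Low-ratio nuclei resembled each other across regions the rule did not use. Each barcode was placed by its regions on the 18 chromosomes, and the 15 nearest barcodes of its library were counted. Of the members' neighbours 44.7%, 31.8%, 44.3% and 40.4% were members, against 2.002%, 0.622%, 1.74% and 0.853% of the middle barcodes' neighbours, where members are 5% of each library. Among barcodes under 10000 counts the values were 68.2%, 29.7%, 58.0% and 55.9% for members and 7.62%, 3.33%, 7.18% and 5.10% for middle barcodes, of which only 21, 6, 26 and 17 were that shallow. Neighbours are a description of the same nuclei and carry no test.

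In 4 barcodes, 3 of them members, 1 chromosome held over 20% of the counts. In the Inflachromene 11 member with the lowest ratio, of 11782 counts, chromosome 7 held 43.8%, chromosome 3 held 21.9%, chromosome 20 held 12.9% and chromosome 4 held 11.2%, and chromosome 19 held 0.00849%. A second member of that library, of 5366 counts, had 35.7% on chromosome 3 and 15.5% on chromosome 17, and a Carrier 31 member had 20.6% on chromosome 6. The barcode that was no member, also of Carrier 31, had 23.7% on chromosome 1. The median share of the largest chromosome was 10.4%, 10.8%, 10.2% and 10.4% in members against 10.2%, 10.0%, 9.86% and 10.1%. In the 5% of barcodes with the highest ratio it was 10.7%, 10.7%, 11.5% and 10.3%, so a larger share was not particular to the members. Without the barcodes above 20% on 1 chromosome, the difference of chromosome 7 was 0.09 (SE 0.0227), that of chromosome 3 was 0.19 (SE 0.0266) and that of chromosome 17 was -0.40 (SE 0.0482).

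Markers of other cell types had few regions. Levels here are CPM of the counts at all gene starts. Of 5 carcinoma markers KRT8 had a region at its start on the analysed chromosomes, at 8.55 to 30.5 CPM in members and 17.9 to 41.4 CPM in middle barcodes. Of 6 myeloid markers CD68, CSF1R and CD14 did, with a summed level of 68.4 to 138 CPM in members and 162 to 177 CPM in middle barcodes, and of 5 fibroblast markers PDGFRB did, at 44.4 to 63.8 and 39.6 to 50.2 CPM. No marker listed for endothelial, T and NK, B, acinar, endocrine or Schwann cells was found with a consensus region at its start. Only markers among the 15812 genes with a listed start could be looked up, so a marker without a region may lack such a start. Barcode sequences were shared between libraries in 25 to 1209 cases a pair, of which 1 to 8 had at least 5000 counts in both, and no member shared its barcode with a member of another library.

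The treatment could be compared within the low-ratio nuclei, since the rule takes the same percentage of each library. No difference between inflachromene and carrier passed. With 2 libraries a group, edgeR called 0 of 24882 regions (0%; 859 at an unadjusted p under 0.05; DESeq2 0) and 0 of 8871 gene starts (0%; 330 unadjusted; DESeq2 0). The groups did not overlap at 31.6% of gene starts, about the share that a random split of 4 libraries into 2 and 2 gives. The median standard error of a gene start's log2 difference was 0.436. With 2 libraries a group the differences ran from -2.66 to 2.97 and none passed, so that large changes too may have been missed.

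The gene starts with the smallest unadjusted p among those without overlap are given as values, in CPM of the counts at all gene starts. CDK9, the kinase that releases paused RNA polymerase, had 122 and 151 CPM in the Carrier members and 22.8 and 56.4 CPM in the Inflachromene members (-1.71, SE 0.475). ZNF484 had 127 and 116 CPM against 34.3 and 45.1 CPM (-1.59, SE 0.486). GBE1, the glycogen branching enzyme, had 93.4 and 57.8 CPM against 240 and 133 CPM (1.23, SE 0.390), and AARSD1 had 18.2 and 8.89 CPM against 83.7 and 70.5 CPM (2.39, SE 0.713). Each of these had an edgeR adjusted p of 1.00.

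Whether low-ratio nuclei differed from middle barcodes by another amount under inflachromene was tested as an interaction. It passed at 0 of 8377 gene starts (0%; 321 unadjusted; DESeq2 0) and in 0 of 249 windows (0%; 9 unadjusted; DESeq2 0), where the smallest edgeR adjusted p was 0.21. Window interactions ran from -0.33 to 0.38 with a median standard error of 0.116, which is as large as many of the windows' own differences.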

How the data were processed

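Single-nucleus ATAC-seq libraries of Panc1 cells from 4 mice were analysed, 2 per treatment, grouped by the sample labels. The deposited values are counts per peak and barcode, on GRCh38; the tools listed are Cell Ranger ARC, with no version, and version 2.1.0 of Cell Ranger ATAC, per the submitters' processing notes. Each library has its own peak list. Most entries are even numbers, so 2 counts were taken as about 1 fragment. Depth over barcodes of at least 5000 counts summed to 32006111, 28230087, 25254457 and 38509235 counts in Carrier 12, Carrier 31, Inflachromene 11 and Inflachromene 35.

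The 4 peak lists were merged into 128195 regions by an overlap of 1 bp, of which 50771 held a peak of all 4 libraries. Counts were summed over members and over middle barcodes within each library, so that the library is the replicate, and tested across all regions, gene starts or 10 Mb windows of the 18 chromosomes outside the rule with edgeR 4.0.16 (quasi-likelihood, TMM, library as a block, Benjamini-Hochberg) in R 4.3.3. Inflachromene was compared with carrier within members over all chromosomes, since the rule takes the same percentage of each library. Counts on the chromosomes of the rule chose the members, so treatment values of single genes there are not reported. Chromosome shares were tested with limma 3.58.1, and single values with exact sign-flip permutation tests over 4 pairs. DESeq2 1.42.0, other depth limits, other thresholds and each library left out were alternatives. Gene starts and promoters are RefSeq's (GRCh38.p14); 10137 of 15812 protein-coding genes had a region within 1000 bp of their start, 2110 of them sharing it. Gene starts of chromosome 8 were not analysed here. The barcode measures use fragments thinned to 2500 where said, and neighbours rest on 30 components of a latent semantic index. The fits were tested on simulated data. CPM are scaled by TMM except for the cell type markers.

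The members and gene lists were chosen with earlier results of these data known. Named gene starts are the 10 with the largest fold in each direction among those past an adjusted p of 0.05 that moved the same way in all 4 libraries, up to 4 of each gene list by unadjusted p, 5 regions away from gene starts in each direction, and 5 gene starts in each direction for the treatment. 1 gene list is not reported here.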

Additional observations from a re-analysis of the deposited data

Results flagged for a closer look

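In groups of 4 libraries, 38 differences between members and middle barcodes were examined for a library that stands apart from the other 3, and 6 did; chance gives about 1 in 20. Carrier 31, which has the fewest members and the deepest middle barcodes, stood apart in 4. Its log2 difference in the share of chromosome 2 was 0.20, where the others were 0.01 to 0.04, and that of chromosome 16 was -0.35, where the others were -0.21 to -0.19. Its log2 ratio of peaks covered at equal depth was -0.0457 against -0.0104 to -0.00665, and its members' largest chromosome held 0.779 percentage points more than that of its middle barcodes, against 0.262 to 0.342 in the others. Carrier 12 stood apart on chromosome 8, with a log2 difference of 0.0785 where the others were 0.130 to 0.134. Inflachromene 11 stood apart in the share of counts at gene starts, which was -4.01 percentage points in members against middle barcodes, where the others were -2.04 to -1.80. The reasons were not tested.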

How the results depend on the processing

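Windows and chromosomes held their counts of calls in most settings, while regions and gene starts did not. Regions called numbered 274, and 1 with at least 10000 counts per barcode, 1944 with the lowest 10%, 604 against all other barcodes, 19 at 5000 to 20000 counts, 35 of 2821 tested with values on held-out peaks, 469 without the deepest 5%, 598 on numbers of barcodes with a count, 425 without the library as a replicate block, and 1 to 13 with 1 library left out. Gene starts called numbered 476, and in the same settings 0, 85, 0 and 40 for at least 10000 counts, the lowest 10%, 5000 to 20000 counts and held-out peaks, 260 on numbers of barcodes, 146 with DESeq2 and 0 to 252 with 1 library left out. Windows fell from 138 to 45 and chromosomes from 11 to 7 at 10000 or more counts. Without the members below a ratio of -1, an alternative chosen after seeing the data, regions numbered 9 and gene starts 55. With 1 library left out, the treatment called 0 to 5 regions and 0 to 7 gene starts, and the interaction 0 to 4 gene starts; the lone library is then assumed to vary like the others. Without the replicate block gene starts numbered 504 and windows 124. No paired analysis was possible because the 2 treatment groups share no replicate numbers, so only members and middle barcodes of 1 library are paired.

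The difference in the share of even entries, -0.0407 percentage points, turned to 0.521 without Carrier 12 and 0.0433 without Inflachromene 35, and leaving out 1 library gave -0.513 to 0.521. Among the named gene starts 16 values of 10 genes changed sign, none of which had passed (lowest edgeR adjusted p 0.205). With the lowest 10%, RFC4 went from -0.41 to 0.0498, ELF3 from -0.41 to 0.0279 and HOXA13 from -0.33 to 0.0419. With 10000 or more counts, DUSP6 went from 0.33 to -0.18, ZEB2 from 0.84 to -0.0278, TNFAIP3 from 0.16 to -0.00538 and HLA-B from -0.61 to 0.0366. At 5000 to 20000 counts MUC1 went from 0.22 to -0.11. SIX2, at 0.13, was -0.0682 with DESeq2, -0.13 with the rule on consensus regions, -0.0189 without members below -1, and -0.56 to 0.588 with 1 library left out (-0.56 without Carrier 12, -0.0305 without Inflachromene 35). S100A2, at 0.0431, was -0.0067 on numbers of barcodes and -0.0885 without Carrier 31, with 0.19 without Carrier 12, and HOXA13 ran from -0.619 to 0.0586, the latter without Inflachromene 11. The causes were not tested. Over the settings of the named gene starts, 1253 values stayed on the same side of the threshold, 224 no longer passed and 24 newly passed. The 1253 include many values of list genes that passed neither in the main fit nor in the setting. For the named regions 75 values stayed and 69 no longer passed. All 204 window values counted in this way stayed, but the last window of chromosome 21 passed in 16 of 17 settings.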
